A study of Homo sapiens with 8 samples.

Results

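Circadian clock genes are described here in HCT116 cells, a human colorectal cancer line that carries a RAS mutation per the labels. The 10 genes are CLOCK, ARNTL, PER1, PER2, PER3, CRY1, CRY2, NR1D1, NR1D2 and BHLHE40. They were taken from the count table by gene symbol and not by a measured value, 10 of 35394 rows. The list was, however, chosen with earlier results of these data known. All 10 passed the filter on low counts, among 15006 genes tested. Cells had been treated with PZH, the Chinese medicine Pien Tze Huang, or had received DMSO, the solvent control, and both groups carry the same RAS mutation. Their poly(A) RNA was sequenced after 24 h, with 4 libraries per group, and no source used here states the dose of PZH. The labels give each library a replicate number and no more, so p-values measure the spread between these libraries, which may be technical.

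The clock is a feedback loop of transcription that runs in most cells of the body, the intestinal epithelium included. CLOCK and ARNTL (also called BMAL1) pair and activate genes through a short DNA motif, the E-box. Among their targets are PER and CRY genes, whose proteins inhibit the pair, and NR1D1 and NR1D2, which encode the REV-ERB receptors that repress ARNTL. BHLHE40 (DEC1) binds E-boxes as a repressor. PER1 is also known to respond within hours to cAMP signalling and to glucocorticoids. All libraries were taken at the same time after treatment, so a shift in the phase of an oscillation and a change in its mean level cannot be told apart. In bulk RNA, a change in each cell and a change in the share of cells that express a gene cannot be told apart either.

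PZH libraries held 18144117 to 18868057 counts and DMSO libraries 19288836 to 19917571. Levels below are CPM, in which a count is set against its library's TMM-adjusted total, unless a sentence says otherwise. The level at 3 counts was 0.137 to 0.182 CPM, and such floors cover counting error only. The epithelial markers EPCAM, CDH1, KRT8, KRT18 and KRT19 summed to 2502 to 3007 CPM in PZH and 3487 to 3571 CPM in DMSO. Within that sum KRT8 fell to 985 CPM in PZH, against 1880 CPM in DMSO (means of 4 libraries), CDH1 rose 3.12-fold, EPCAM rose 1.08-fold, and KRT18 and KRT19 were not called; with no scaling factors 1 of the 5 was called higher and 4, EPCAM among them, lower. Of 14 markers of fibroblasts, endothelium and immune cells, 1 (the collagen gene COL1A1) reached a mean of 1 CPM. The 5 fibroblast markers summed to 19.5 to 23.3 CPM in PZH and 10.7 to 13.0 CPM in DMSO, with COL1A2 at 0 in every library. Sums were 0.295 to 0.906 CPM in PZH and 1.00 to 1.44 CPM in DMSO for 4 endothelial markers, and 0.113 to 1.93 CPM in PZH and 0.186 to 2.83 CPM in DMSO for 5 immune markers. Of 3 neuronal markers, SYT1 stood at 84.7 ± 6.75 CPM in PZH and 81.8 ± 1.47 CPM in DMSO. The others, RBFOX3 (0.285 CPM in PZH, 0.210 CPM in DMSO) and SNAP25 (0.0425 and 0.513 CPM), did not pass the filter on low counts. The part of these markers in the results was not tested.

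Of the 10 clock genes, 7 were higher in PZH, 2 were lower and PER2 did not pass the test (edgeR's quasi-likelihood test, Benjamini-Hochberg adjustment over all genes tested, threshold 0.05). The repressors BHLHE40 and NR1D1 rose most, 4.44-fold and 4.08-fold, ARNTL rose 2.64-fold and PER1 2.22-fold, while CLOCK fell to 0.647 of its DMSO level. PER3, the other gene called lower, lost its call without PZH replicate 1 (adjusted p = 0.0577). This count has to be read against a transcriptome that changed broadly: 80.3% of all genes tested were called, 39.3% higher and 40.9% lower. The count of called clock genes, 9 of 10, is therefore near the background, and so is the number whose PZH and DMSO libraries did not overlap, 9 of 10 against 75.0% of genes. All PZH libraries lay above all DMSO libraries for 36.6% of genes and below them for 38.4%. Of the clock genes, 4 rose at least 2-fold and 0 fell that far, against 15.8% and 18.9% of genes tested. Their median log2 fold change was 0.83, beside -0.02 over all genes tested.

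**Figure D1:**
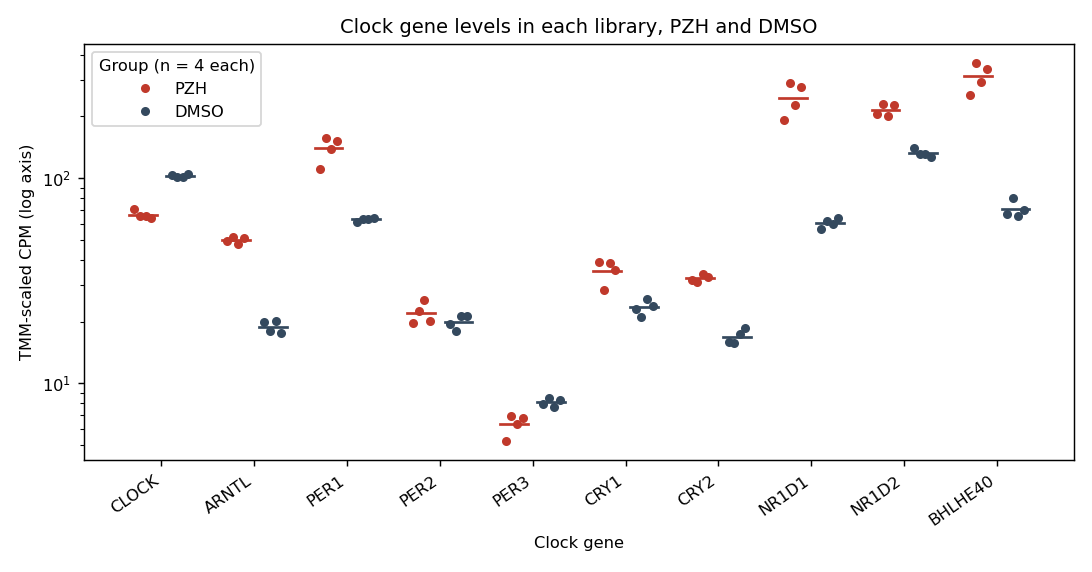
TMM-scaled CPM (log axis) of each of the 10 clock genes, with 4 PZH libraries (red, left) and 4 DMSO libraries (dark, right) as points and the group mean as a line. PER2 is the gene whose groups overlap; CLOCK and PER3 lie lower in PZH and the other 7 lie higher.

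The activator pair moved in opposite directions. CLOCK, which encodes a bHLH-PAS transcription factor, measured 70.9, 65.3, 65.1 and 63.8 CPM in PZH (replicates 1 to 4 in turn, here and below), against 103, 102, 101 and 104 CPM in DMSO. Every PZH library lay below every DMSO library, and the log2 fold change was -0.63 ± 0.047 (± standard error here and below; adjusted p = 2.88e-11). ARNTL, its partner, stood at 49.4, 51.6, 47.7 and 50.8 CPM in PZH, against 19.9, 17.9, 20.02 and 17.7 CPM in DMSO. Here every PZH library lay above every DMSO library, and the log2 fold change was 1.40 ± 0.064 (adjusted p = 3.42e-15). A ratio of 2 genes within a library does not depend on how libraries are scaled, and such read ratios are not corrected for gene length. By that measure CLOCK reads outnumbered ARNTL reads 1.33 to 1 in PZH and 5.44 to 1 in DMSO (geometric means of 4 libraries). The log2 ratio was lower in PZH by 2.03 (difference -2.03 ± 0.070, exact two-sided permutation p = 0.0286, the smallest that 70 assignments allow). The same p was found for each of the 8 ratios compared, and it was also 0.0286 after Benjamini-Hochberg adjustment over the 8. Ratios of other pairs of genes were not examined, and in CPM 75.0% of all genes tested did not overlap between groups. How particular the 8 results are to clock genes is therefore not known.

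NPAS2 and ARNTL2, paralogs of the activators, did not pass the test. NPAS2, which can stand in for CLOCK, was at 13.8 ± 0.594 CPM in PZH and 14.6 ± 0.511 CPM in DMSO (mean ± SD, n = 4 each; log2 fold change -0.08 ± 0.086, adjusted p = 0.390). ARNTL2, a relative of ARNTL, was at 32.5 ± 2.21 CPM in PZH and 33.3 ± 1.86 CPM in DMSO (log2 fold change -0.04 ± 0.066, adjusted p = 0.596). Libraries of both groups overlapped for each. Without scaling factors, which shifts the median of all genes by -0.26, both were called lower (log2 fold change -0.34 and adjusted p = 0.00153 for NPAS2, -0.30 and 5.98e-04 for ARNTL2).

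The 3 PER genes, which encode the scaffold of the inhibitory complex, went separate ways. PER1 stood at 111, 157, 139 and 152 CPM in PZH, against 61.0, 63.0, 63.5 and 64.1 CPM in DMSO (log2 fold change 1.15 ± 0.075, adjusted p = 2.06e-12). The groups did not overlap, and the PZH libraries were spread more widely, with a coefficient of variation of 14.9% in PZH and 2.17% in DMSO. PER2 stood at 19.8, 22.4, 25.5 and 20.2 CPM in PZH, against 19.5, 17.9, 21.4 and 21.2 CPM in DMSO. Its groups overlapped and the test was not passed (log2 fold change 0.13 ± 0.088, adjusted p = 0.164). The estimate turned to -0.12 without scaling factors (adjusted p = 0.206), and leaving out PZH replicate 1 gave a call of higher (0.20, adjusted p = 0.0414). PER3 stood at 5.21, 6.91, 6.34 and 6.78 CPM in PZH, against 7.94, 8.47, 7.68 and 8.32 CPM in DMSO. All PZH libraries lay below all DMSO libraries (log2 fold change -0.36 ± 0.12, adjusted p = 0.0106), but the call was lost on leaving out PZH replicate 1 (-0.26, adjusted p = 0.0577).

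Within libraries, PER1 gained on both of its paralogs. PER1 reads outnumbered PER2 reads 6.34 to 1 in PZH and 3.15 to 1 in DMSO, a difference in log2 ratio of 1.01 ± 0.13. PER1 reads outnumbered PER3 reads 22.0 to 1 in PZH and 7.75 to 1 in DMSO, a difference of 1.51 ± 0.039. PER2 reads outnumbered PER3 reads 3.47 to 1 in PZH and 2.46 to 1 in DMSO, a difference of 0.50 ± 0.13. For all 3 ratios the PZH and DMSO libraries did not overlap, but for PER2 to PER3 the exact p was 0.0571 without DMSO replicate 1, 2 or 4.

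Both cryptochromes, the partners of PER in the inhibitory complex, rose. CRY1 stood at 38.8, 28.4, 38.7 and 35.9 CPM in PZH, against 23.1, 21.2, 25.8 and 23.7 CPM in DMSO. PZH replicate 2 was the lowest of the treated libraries and lay nearest to the controls (log2 fold change 0.60 ± 0.087, adjusted p = 1.73e-06). CRY2 stood at 32.0, 31.1, 34.2 and 33.0 CPM in PZH, against 15.8, 15.7, 17.4 and 18.7 CPM in DMSO. These groups lay far apart relative to their spread (log2 fold change 0.95 ± 0.074, adjusted p = 6.27e-11). CRY1 reads outnumbered CRY2 reads 1.08 to 1 in PZH and 1.39 to 1 in DMSO, so CRY2 rose more than CRY1 (difference in log2 ratio -0.36 ± 0.10, exact permutation p = 0.0286). The exact p of this difference was 0.0571 without PZH replicate 2 or without DMSO replicate 1, 2 or 3. In PZH replicate 2 alone among treated libraries, CRY1 had fewer reads than CRY2 (ratio 0.913).

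The REV-ERB genes, which encode heme-binding nuclear receptors, both rose, NR1D1 more than NR1D2. NR1D1 stood at 191, 290.2, 228 and 278 CPM in PZH, against 56.6, 61.9, 59.6 and 63.9 CPM in DMSO (log2 fold change 2.03 ± 0.090, adjusted p = 2.05e-15). No PZH library came near the DMSO range. NR1D2 stood at 206, 229, 201 and 228 CPM in PZH, against 139.7, 131, 130.7 and 126 CPM in DMSO (log2 fold change 0.71 ± 0.051, adjusted p = 1.44e-11). NR1D1 reads outnumbered NR1D2 reads 1.13 to 1 in PZH, whereas in DMSO there were 0.458 NR1D1 reads for each NR1D2 read (difference in log2 ratio 1.30 ± 0.12). In PZH replicate 1 alone among treated libraries, NR1D1 had fewer reads than NR1D2.

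NR1D1 shares 263 of its 2772 exon bases with THRA, a thyroid hormone receptor gene on the opposite strand, by the GENCODE annotation. No source used here says whether counting used strand, so reads of the shared bases cannot be assigned with certainty. THRA itself fell, to 11.8 ± 0.798 CPM in PZH, against 44.0 ± 2.67 CPM in DMSO (log2 fold change -1.90 ± 0.074, adjusted p = 1.88e-16). The NR1D1 to THRA ratio was 20.7 in PZH and 1.38 in DMSO, a difference in log2 ratio of 3.91 ± 0.11. PER3 shares 868 of its 6486 exon bases with UTS2 and 376 with Z98884.1, both on the opposite strand. UTS2 averaged 0.327 CPM in PZH and 1.278 CPM in DMSO, and its part in the fall of PER3 was not tested. Z98884.1 averaged 0.176 CPM in PZH and 0.0461 CPM in DMSO. The opposite-strand partners of BHLHE40, CLOCK and PER2 were below 0.4 CPM in every library. TMEM165, a neighbour of CLOCK, fell to 27.0 ± 1.64 CPM in PZH, against 61.6 ± 1.47 CPM in DMSO (log2 fold change -1.19 ± 0.058, adjusted p = 1.04e-14).

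BHLHE40 showed the largest change of the 10 genes. It stood at 255, 364, 294 and 341 CPM in PZH, against 66.9, 80.2, 65.6 and 69.8 CPM in DMSO (log2 fold change 2.15 ± 0.085, adjusted p = 2.22e-16). The groups lay far apart, and PZH replicate 1 was the lowest of the treated libraries. Its paralog BHLHE41 (DEC2) was scarce, at 5.17 ± 1.02 CPM in PZH and 3.68 ± 0.486 CPM in DMSO (log2 fold change 0.49 ± 0.17, adjusted p = 0.0103), and its call was lost without scaling factors (0.24, adjusted p = 0.213). BHLHE40 reads outnumbered BHLHE41 reads 60.6 to 1 in PZH and 19.1 to 1 in DMSO, a difference in log2 ratio of 1.66 ± 0.23.

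**Figure D2:**
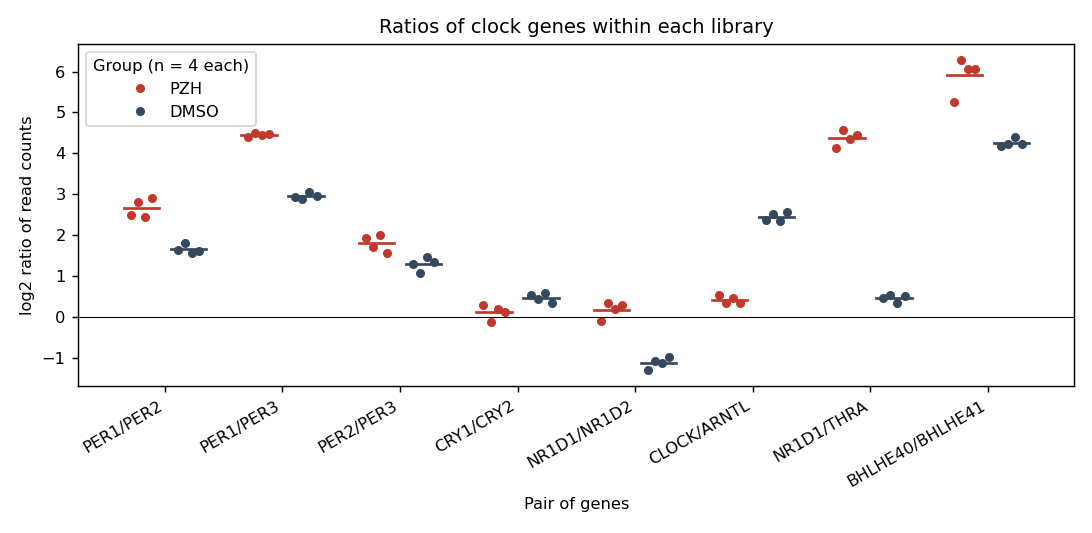
Log2 ratio of read counts of 2 genes in each library (points) for 8 pairs, PZH in red on the left and DMSO in dark on the right, with the group mean as a line. The groups part for every pair. CLOCK/ARNTL and CRY1/CRY2 are lower in PZH (by 2.03 and 0.36) and the other 6 are higher. Other pairs of genes were not examined.

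In PZH, 4 of the 10 genes (PER1, PER3, NR1D1 and BHLHE40) were highest in replicate 2 and lowest in replicate 1. This order was taken from these same genes, so its share of 9.34% over all tested genes makes no test. Replicate 2 exceeded replicate 1 by 1.42 times for PER1, 1.33 times for PER3, 1.52 times for NR1D1 and 1.43 times for BHLHE40. CRY1 had the reverse order, highest in replicate 1 and lowest in replicate 2, which stood at 0.73 of replicate 1. For CLOCK and CRY2, replicate 2 was also below replicate 1, at 0.922 and 0.9715 of it. Among DMSO libraries, highest and lowest differed by 1.03 times (CLOCK) to 1.22 times (BHLHE40).

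The promoters of 4 genes are shown because they hold short motifs bound by clock factors: the E-box CACGTG, the related motif CACGTT that clock factors also bind, and the D-box TTATGTAA bound by DBP, TEF, HLF and NFIL3. Each sequence is the 250 bases before the gene's start in RefSeq (GRCh38.p14), read 5′ to 3′ along the gene's strand, and capitals mark the motif. The windows are chr17:8152405-8152654 (minus strand) for PER1, chr3:4979187-4979436 (plus strand) for BHLHE40, chr17:40100590-40100839 (minus strand) for NR1D1 and chr1:7784041-7784290 (plus strand) for PER3.
PER1: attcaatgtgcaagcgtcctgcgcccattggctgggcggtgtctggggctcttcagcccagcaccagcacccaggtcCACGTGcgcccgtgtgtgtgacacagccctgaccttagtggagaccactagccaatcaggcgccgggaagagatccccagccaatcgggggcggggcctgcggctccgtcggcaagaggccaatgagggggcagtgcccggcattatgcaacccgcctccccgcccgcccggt
BHLHE40: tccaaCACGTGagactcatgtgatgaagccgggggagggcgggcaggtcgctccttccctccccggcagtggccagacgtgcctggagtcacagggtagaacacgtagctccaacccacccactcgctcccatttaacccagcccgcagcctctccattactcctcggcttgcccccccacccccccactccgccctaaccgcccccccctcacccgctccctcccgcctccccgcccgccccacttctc
NR1D1: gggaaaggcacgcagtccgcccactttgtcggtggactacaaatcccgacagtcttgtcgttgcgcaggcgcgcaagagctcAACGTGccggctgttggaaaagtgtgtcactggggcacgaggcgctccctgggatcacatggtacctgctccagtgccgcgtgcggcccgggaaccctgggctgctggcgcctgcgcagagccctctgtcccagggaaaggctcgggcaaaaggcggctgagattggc
PER3: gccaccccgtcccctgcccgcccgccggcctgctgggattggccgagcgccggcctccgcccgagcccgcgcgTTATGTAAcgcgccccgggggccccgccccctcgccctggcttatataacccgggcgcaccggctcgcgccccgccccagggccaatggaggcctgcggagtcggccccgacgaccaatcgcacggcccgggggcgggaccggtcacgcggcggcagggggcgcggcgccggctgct
PER1 holds an E-box 173 to 168 bases before its start and BHLHE40 holds one 245 to 240 bases before. NR1D1 holds CACGTT on the opposite strand, where the printed strand reads AACGTG, 168 to 163 bases before. PER3 holds a D-box 177 to 170 bases before.

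All 10 clock genes had such a window, and both strands were searched. The E-box stood in 2 of the 10 (PER1 and BHLHE40) and in 6.34% of 35116 RefSeq windows of the same length. CACGTT stood in 3 of 10 (PER2, CRY1 and NR1D1) and in 4.55% of windows. The D-box stood in 1 of 10 (PER3) and in 0.834%. The cAMP response element TGACGTCA stood in 0 of 10 and in 1.65%, and its core TGACG in 3 of 10 (PER2, CRY1 and CRY2) and in 21.2%. The antioxidant response element TGACNNNGC, bound by NRF2, stood in 3 of 10 (PER1, PER2 and CRY1) and in 10.9%, and overlapped the TGACG core in CRY1 and CACGTT in PER2. The motif TGATGNAA bound by ATF4 with CHOP stood in 0 of 10 and in 3.14%, and TAGGTCA, the core of the element bound by REV-ERB and ROR receptors, in 0 of 10 and in 1.61%. Among the 7 genes that rose, ARNTL, CRY2 and NR1D2 held neither CACGTG nor CACGTT in this window. These matches describe letters in a window and were not tested as binding sites. A site with variant letters, or one that lies or runs outside the window, was not counted.

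**Figure D3:**
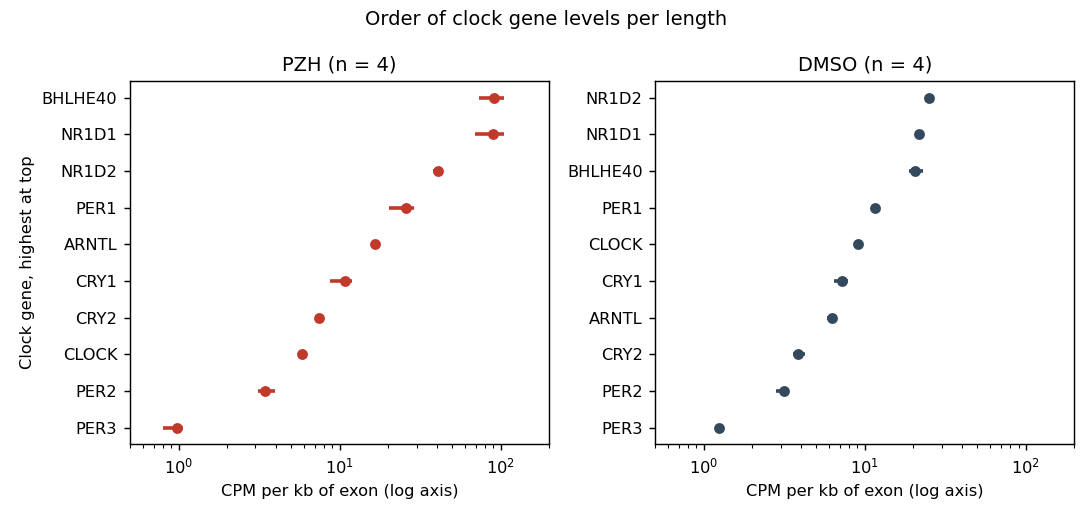
Mean level of each clock gene in CPM per kb of exon (points, log axis) with the range of 4 libraries (bars), ordered within PZH (left) and within DMSO (right). BHLHE40 and NR1D1 stand first in PZH, NR1D2 stands first in DMSO, and PER3 stands last in both.

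Levels of different genes were compared per length, as CPM per kb of exon in the GENCODE annotation, which may not be the one used for counting. In PZH the order was BHLHE40 (90.3 ± 14.1 CPM per kb, mean ± SD, n = 4), NR1D1 (89.0 ± 16.5), NR1D2 (41.0 ± 2.81), PER1 (25.6 ± 3.82), ARNTL (16.5 ± 0.569), CRY1 (10.8 ± 1.51), CRY2 (7.45 ± 0.307), CLOCK (5.85 ± 0.277), PER2 (3.44 ± 0.412) and PER3 (0.973 ± 0.120). Of neighbours in that order, BHLHE40 and NR1D1 overlapped in their libraries and the others did not. In DMSO the order was NR1D2 (25.1 ± 1.06 CPM per kb), NR1D1 (21.8 ± 1.13), BHLHE40 (20.3 ± 1.91), PER1 (11.5 ± 0.250), CLOCK (9.04 ± 0.134), CRY1 (7.18 ± 0.585), ARNTL (6.23 ± 0.412), CRY2 (3.87 ± 0.322), PER2 (3.13 ± 0.252) and PER3 (1.25 ± 0.0551). There NR1D1 overlapped BHLHE40, and CRY1 overlapped ARNTL. CLOCK thus stood in place 8 in PZH and 5 in DMSO, and ARNTL in place 5 in PZH and 7 in DMSO.

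Among the D-box factors, outputs of the loop, the activators DBP, HLF and TEF fell and the repressor NFIL3 rose. All 4 were called, 1 higher and 3 lower, where 39.3% of all genes tested were called higher and 40.9% lower. DBP, whose gene is a direct target of CLOCK and ARNTL, stood at 12.5, 20.3, 14.98 and 15.8 CPM in PZH, against 33.8, 37.2, 34.6 and 33.5 CPM in DMSO (log2 fold change -1.13 ± 0.098, adjusted p = 3.95e-10). Its direction was thus opposite to that of PER1 and NR1D1, which the same pair is known to activate. NFIL3 (E4BP4), which represses through the D-box, stood at 259, 289, 299 and 319 CPM in PZH, against 32.5, 31.9, 32.2 and 30.8 CPM in DMSO. It rose 9.14-fold (log2 fold change 3.19 ± 0.060, adjusted p = 6.11e-22), more than any of the 10 clock genes. HLF was at 1.73 ± 0.278 CPM in PZH and 2.69 ± 0.337 CPM in DMSO (log2 fold change -0.64 ± 0.21, adjusted p = 0.00869). TEF was at 31.5 ± 2.52 CPM in PZH and 35.3 ± 1.59 CPM in DMSO with overlapping groups (log2 fold change -0.16 ± 0.066, adjusted p = 0.0297). TEF was not called by DESeq2 (adjusted p = 0.0905), nor with RLE factors (0.0657), nor without PZH replicate 1, PZH replicate 3, DMSO replicate 1 or DMSO replicate 4 (adjusted p = 0.0686 to 0.132).

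Of the loop factors not described above, TIMELESS was lower and the rest were scarce. RORA and RORB, receptors that activate ARNTL, and the repressor CIART did not pass the filter on low counts. RORA had 19 counts over the 4 PZH libraries and 20 over the 4 DMSO libraries, RORB 1 and 0, and CIART 6 and 4. TIMELESS, which in mammals serves replication forks and is also tied to the clock, fell to 41.8 ± 2.93 CPM in PZH, against 121 ± 5.63 CPM in DMSO (log2 fold change -1.54 ± 0.055, adjusted p = 3.51e-17). Of the 8 listed paralogs and loop factors, 4 were tested, of which 1 was called higher and 1 lower (0 and 3 with no scaling factors). The shares over all genes tested were 39.3% higher and 40.9% lower.

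**Figure D4:**
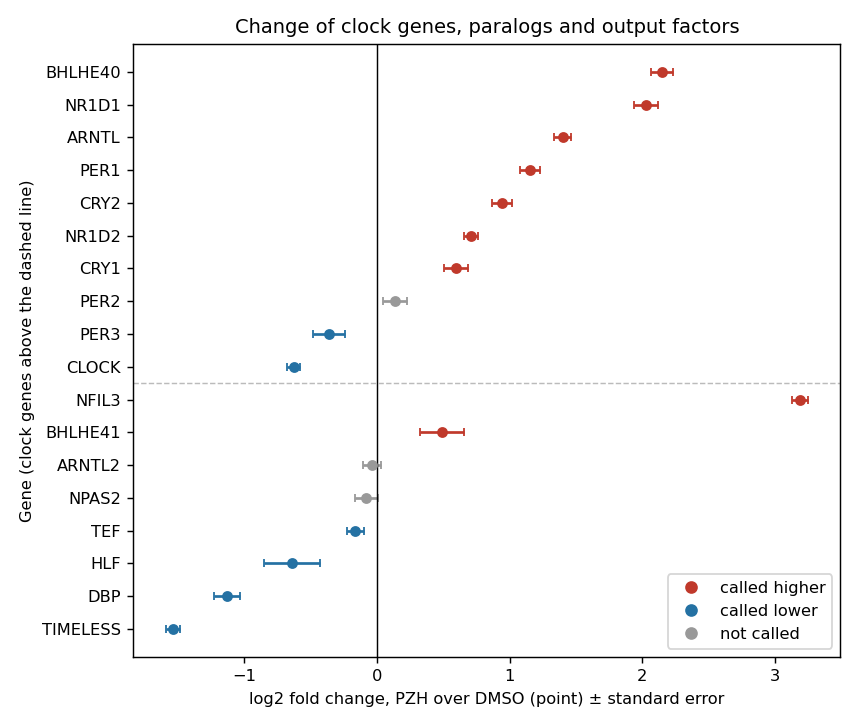
Log2 fold change, PZH over DMSO, with its standard error for the 10 clock genes (above the dashed line) and for tested paralogs, loop factors and D-box factors (below it). BHLHE40 and NR1D1 exceed 2, NFIL3 exceeds 3, and TIMELESS and DBP lie below -1.

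Genes for enzymes that modify, stabilise or degrade PER and CRY were listed next. Of these 18 genes, 13 were higher, 3 lower and 2 not called, with a median log2 fold change of 0.30, where 39.3% of all genes tested were called higher and 40.9% lower. With no scaling factors the counts were 8 higher and 5 lower. The casein kinase gene CSNK1A1 rose to 333 ± 4.35 CPM in PZH, against 155 ± 4.20 CPM in DMSO (log2 fold change 1.10 ± 0.044, adjusted p = 2.26e-16). CSNK2A1, a catalytic subunit of casein kinase 2, rose 2.14-fold, a value that is uncertain because the near-identical gene CSNK2A3 can share its reads. USP2, a deubiquitinase known to act on clock proteins in mouse, rose 2.57-fold, and the phosphatase gene PPP5C fell to 0.498 of its DMSO level. The kinases that mark PER for degradation, CSNK1D and CSNK1E, were named after their values were seen. CSNK1D rose 1.62-fold, to 212 ± 3.98 CPM in PZH, against 131 ± 3.25 CPM in DMSO, and CSNK1E rose 1.69-fold.

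Coregulators of the loop went both ways. All 17 were called, 7 higher and 10 lower, with a median log2 fold change of -0.17, beside -0.02 and 80.3% called over all genes tested. With no scaling factors 5 were higher and 10 lower. NCOA3, a coactivator of CLOCK and ARNTL, rose 2.87-fold, to 169 ± 7.08 CPM in PZH, against 58.8 ± 1.60 CPM in DMSO. NCOR1, the corepressor through which REV-ERB receptors silence their targets, rose 2.03-fold. NONO, an RNA-binding partner of PER, fell to 0.610 of its DMSO level (log2 fold change -0.71 ± 0.046, adjusted p = 1.76e-12).

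Genes known mainly from mouse tissues to be rhythmic or clock-controlled were higher in 10 of 13 tested cases, lower in 2 and not called in 1. Their median log2 fold change was 1.09. Over all genes tested, 39.3% were called higher and 40.9% lower. Without scaling factors 9 of the 13 were higher and 3 lower. NAMPT, the rate-limiting enzyme of NAD salvage, rose 2.09-fold, to 337 ± 24.5 CPM in PZH, against 161 ± 1.26 CPM in DMSO. The mitotic brake kinase WEE1, an E-box target in mouse liver, fell to 31.9 ± 5.26 CPM in PZH, against 92.8 ± 0.718 CPM in DMSO (log2 fold change -1.54 ± 0.075, adjusted p = 1.14e-14). NOCT (nocturnin) rose 3.76-fold. ALAS1, the first enzyme of heme synthesis, rose 2.81-fold, POR, the electron donor of cytochromes P450, 2.13-fold, and the transaminase GPT2 2.34-fold. TSC22D3 and KLF9, which like PER1 are known glucocorticoid targets, rose 6.63-fold and 2.49-fold. The part of glucocorticoid signalling in these rises was not tested.

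Genes of the CREB pathway, by which cAMP signals reach PER1, were higher in 12 of 16 tested cases and lower in 4. Their median log2 fold change was 0.81, and over all genes tested 39.3% were called higher and 40.9% lower. With no scaling factors 9 of the 16 were higher and 4 lower. The part of cAMP signalling in these changes was not tested. The phosphatase gene DUSP1 rose 25.5-fold, and the immediate early genes EGR1 and FOS rose 20.2-fold and 10.6-fold. CREM, which encodes activators and repressors at cAMP response elements, rose to 45.7 ± 3.18 CPM in PZH, against 13.3 ± 0.817 CPM in DMSO. The phosphodiesterase gene PDE4D rose 4.12-fold, and RGS2, an inhibitor of G protein signalling, fell to 0.327 of its DMSO level. Over the other lists together, 44 of 72 tested genes rose and 23 fell (32 and 28 with no scaling factors). Over the table as a whole, 5901 rose and 6143 fell (4473 and 7670 with no scaling factors). The split of the 10 clock genes, 7 higher and 2 lower, was the same under both scalings.

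**Figure D5:**
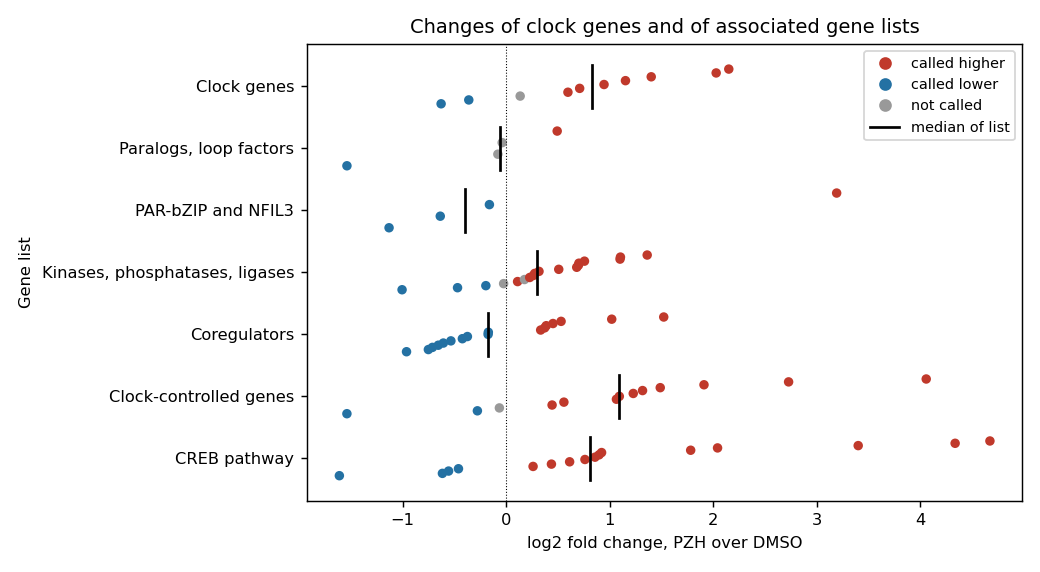
Log2 fold change, PZH over DMSO, of every tested gene in the clock gene list and 6 associated lists (points coloured by call; black line, median). The medians are 0.83 for the clock genes, -0.06, -0.40, 0.30 and -0.17 for the next 4 lists, and 1.09 and 0.81 for the clock-controlled and CREB lists.

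The genes whose library pattern was most like that of BHLHE40 were FHL2, S100A14 and TIMP1. Likeness was the root-mean-square difference in log2 CPM over 8 libraries, each gene centred on its DMSO mean, and it was 0.0712, 0.0719 and 0.0791 for the 3 genes. This measure includes the shift from DMSO to PZH, so close log2 fold changes follow from the choice and are no further result. They were 2.14, 2.18 and 2.15, beside 2.15 for BHLHE40. For CLOCK, the clock gene that fell most, the nearest were CMTM6, LRRC58 and TSPAN17, at 0.0297, 0.0338 and 0.0361. Their log2 fold changes, close by the same choice, were -0.61, -0.64 and -0.63, beside -0.63 for CLOCK.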

How the data were processed

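Poly(A) RNA of 8 HCT116 libraries, 4 PZH and 4 DMSO, was extracted with Trizol and prepared with the NEBNext Ultra RNA kit, per the labels' protocols. The submitters' processing notes name HISAT2 2.1.0, StringTie 1.3.3b, DESeq 1.28.0 and FastQC 0.11.5 without roles. The build, annotation and strand setting are not stated in any source used here. The table the authors deposited holds whole-number counts per gene symbol, without normalization. Columns belonging to no sample numbered 0.

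Genes were kept by edgeR's filterByExpr (minimum count 10, minimum total count 15), scaled with TMM and tested with edgeR's quasi-likelihood F test (group as the only term, two-sided, Benjamini-Hochberg adjustment over all 15006 genes, threshold 0.05). Standard errors were taken as |log2 fold change| over the root of F. Ratios within a library used a pseudocount of 0.5 and an exact permutation test over 70 assignments; their standard errors come from the spread in both groups. Replicates differed by more than counting noise in every pair (chi-square per degree of freedom 4.03 to 12.3 in PZH and 2.39 to 2.81 in DMSO). Versions were edgeR 4.0.16, DESeq2 1.42.0 and limma 3.58.1 under R 4.3.3, with Python 3.11.15 for figures.

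The clock genes and lists were chosen with earlier results of these data known. Named were the 10 clock genes; all paralogs, D-box factors and overlapping or neighbouring genes; of every other list the called genes with a log2 fold change of at least 1 in size and the 3 with the smallest p; and the 3 genes most like the clock gene with the largest change in each direction. Clone names in the overlap check, CSNK1D and CSNK1E fall outside it. Some genes of these lists are not reported here. Alternatives were a replicate block, RLE, upper quartile or no scaling factors, other filters, limma-voom, DESeq2, robust empirical Bayes, an adjusted p of 0.01, 5 counts added in ratios, and leaving out each library.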

Additional observations from a re-analysis of the deposited data

Results flagged for a closer look

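Among 40 groups of 4 libraries checked for a library set apart from the rest (the 10 clock genes, tested paralogs and loop factors, D-box factors, THRA and TMEM165), 1 was past the 95% critical value of the gap test, where chance flags about 1 in 20. TIMELESS stood at 46.2 CPM in PZH replicate 2, whereas the other PZH libraries lay between 40.2 and 40.5 CPM, a gap of 0.961 of the group's range; DMSO libraries lay between 117 and 129.5 CPM.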

How the results depend on the processing

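Over 18 alternatives, 8 of the 10 clock genes kept their call and direction in every one; the exceptions were PER2 and PER3. The count of clock genes called lower went to 1 at an adjusted p of 0.01 (PER3 lost), and over leaving out each library it ranged from 1 to 2, with 1 on leaving out PZH replicate 1. Of 1331 values of other listed genes under alternatives, 1278 kept their call, 45 lost it, 6 gained one and 2 reversed: without scaling factors CSNK2B went to -0.033 (adjusted p = 0.773) and PPP2CA to -0.15 (adjusted p = 0.00224). Same-numbered PZH and DMSO libraries did not deviate together (correlations 0.00074 to 0.0113 over genes; 1 of 4 PZH libraries correlated best with its own number), so the numbers are not taken as pairs. With the replicate block the clock genes were again 7 higher and 2 lower, and 5889 and 6125 genes were called higher and lower over the table. In ratios a sign-flip test over the 4 numbered differences cannot go below 0.125, and it gave that p for PER1/PER2 (1.01), PER1/PER3 (1.51), PER2/PER3 (0.50), CRY1/CRY2 (-0.36), NR1D1/NR1D2 (1.30), CLOCK/ARNTL (-2.03), NR1D1/THRA (3.91) and BHLHE40/BHLHE41 (1.66) with the replicate block. Leaving out a library, differences ranged from 0.425 to 0.574 for PER2/PER3 (exact p = 0.0571 without DMSO replicate 1, 2 or 4) and from -0.415 to -0.278 for CRY1/CRY2 (exact p = 0.0571 without PZH replicate 2 or DMSO replicate 1, 2 or 3); the other 6 ratios kept 0.0286. The causes were not tested. Depth limits what can be said of RORA, RORB and CIART.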
